A study of Mus musculus with 9 samples.

Results

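Newborn neurons (N) were compared with differentiative progenitors (DP) of the mouse lateral cortex at embryonic day 14.5 across all circular RNAs (circRNAs) of the study, using the 3 N and 3 DP libraries among its 9. The remaining 3 libraries hold proliferative progenitors (PP), and their values are given only beside those of N and DP. They also entered the filter, the scaling and the estimate of the spread in the test of N against DP. All cells came from C57BL/6 embryos of a line with a pair of reporters, RFP driven by the Btg2 promoter and GFP driven by the Tubb3 promoter. The paper gives the pregnant mice as heterozygous for both. DP were sorted as RFP-positive and GFP-negative, N as GFP-positive whether or not they carried RFP, and PP as negative for both, so that a cell was placed by reporter protein and not by its own RNA. The paper describes the 3 libraries of each cell type as biological replicates. Whether each library pooled several embryos is not given in the sources used here. If the replicates are not separate cultures or animals the p-values measure only the spread between these libraries. The RNA was treated with RNase R, an enzyme that digests linear RNA, before strand-specific sequencing.

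In the developing cortex, DP are the cells that leave expansive divisions and divide to produce neurons, and N have left the cell cycle. A circRNA forms when the spliceosome joins the 3′ end of an exon back to the 5′ end of the same or an earlier exon of its parental gene, which gives a closed loop without a cap or a tail. Because the loop is made from the primary transcript of the gene and resists exonucleases, its level depends on the transcription of the gene, on how often it is backspliced, and on how long it persists.

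The deposited values are counts of the reads on the features of each of 5281 circRNAs. The entry CiCo_mm9_circ_004999 within Cdk8 and 26 entries between 39979944 and 39985671 on chromosome 17 (mm9) were left out before scaling, which left 5254 circRNAs with between 269894 and 287374 counts per DP library and between 102958 and 287983 per N library. Levels are given as CPM, the retained counts scaled to the effective size of each library, and 3 counts, the upper limit that a count of 0 allows, correspond to between 9.92 and 37.9 CPM in the 6 libraries. N replicate 1 was the shallowest of the 6 and stood apart, with a Spearman correlation across circRNAs of 0.794 and 0.831 against the other N libraries, which had one of 0.947 between them. Its difference from them also rose with the GC content of the circRNA (Spearman correlation 0.526 across 4389 circRNAs, which are not independent). The counts of all calls and some of the results that rest on N replicate 1 are therefore given with and without it. In PP, replicate 3 also had the lower Spearman correlations (0.713 and 0.703 against 0.922), and a relation of its difference to GC content was not tested.

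Of 4389 circRNAs with enough counts to test, 876 (20%) passed edgeR's quasi-likelihood test between N and DP with an adjusted p below 0.05. Of these, 431 (9.82%) were higher and 445 (10.1%) were lower in N, and the median log2 fold change (FC, N minus DP) of all circRNAs tested was -0.02. The libraries of N and DP did not overlap for 1755 circRNAs (40%), including 867 of those called. By fitted log2 FC, decreases were the larger. Of the circRNAs that fell, 284 had changed by more than 2 on the log2 scale and 80 by more than 4. Of those that rose, 148 and 16 had done so. Among the circRNAs tested, 24 had no count in any N library and 1 had none in any DP library. For these only a lower limit of the fold can be measured, so the numbers beyond 2 and 4 may be too large. Without N replicate 1 the counts were 485 higher and 467 lower, and 782 of the 876 calls were also made. Without DP replicate 2, 233 were higher and 324 lower, and without DP replicate 1 the higher ones fell to 264. Scaling to total counts with the high-count entries kept gave 84 higher and 323 lower and shifted the median of all circRNAs to -0.37.

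**Figure D1:**
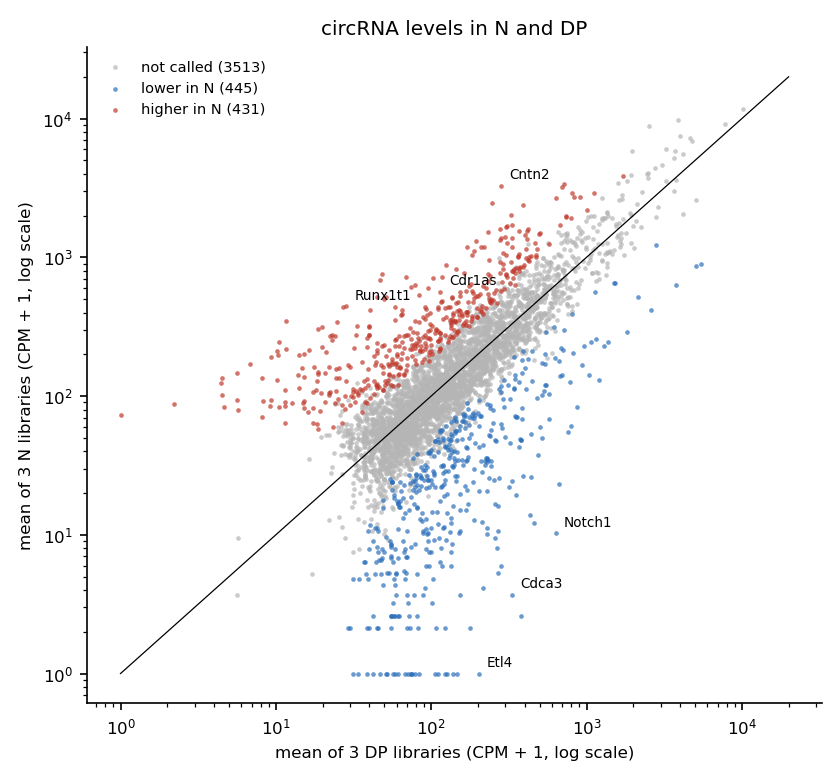
Mean level of each tested circRNA in the 3 DP libraries (x axis) and the 3 N libraries (y axis), as CPM + 1 on log scales, with circRNAs called higher in N in red, lower in blue and not called in grey. The 445 circRNAs lower in N reach further from the line of equal levels than the 431 higher ones, and those on the bottom edge had no count in any N library.

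The circRNAs described first are those that rose most, among those at or above the median level and with libraries that did not overlap. The first was a circRNA of Runx1t1, a transcriptional co-repressor of the ETO family. Its level was 468, 441 and 418 CPM in the N libraries and 13.2, 36.0 and 32.6 CPM in the DP libraries. The groups were far apart and all N libraries were alike (442 ± 25 against 27.3 ± 12.3 CPM, SD, n = 3; log2 FC 4.0 ± 0.51, SE; edgeR adjusted p = 0.000114). A circRNA of Slc8a1, a sodium-calcium exchanger of the plasma membrane, was at 733, 249 and 337 CPM in N and at 16.5, 18 and 43.4 CPM in DP. Its N libraries were spread but the lowest was still above the highest DP library (log2 FC 3.99 ± 0.53, edgeR adjusted p = 0.000131). A circRNA of Cntn2, a contactin on the surface of growing axons, was at 3564, 2718 and 3569 CPM in N and at 238, 198 and 409 CPM in DP. Its N libraries lay far above its DP libraries (log2 FC 3.54 ± 0.35, edgeR adjusted p = 2.92e-05), and in PP it was between 27.1 and 33.0 CPM.

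The backsplice junctions of these circRNAs are shown because a read across the junction is what sets the circle apart from the linear transcript. Each runs 5′ to 3′, with the last 20 bases before the junction in lower case and the first 20 bases after it in capitals, read from mm9. The Runx1t1 circle spans chr4:13762780-13774104 on the plus strand, the Slc8a1 circle chr17:81788150-81844933 on the minus strand and the Cntn2 circle chr1:134421884-134423040 on the minus strand. All of them begin and end at annotated exon ends.
Runx1t1: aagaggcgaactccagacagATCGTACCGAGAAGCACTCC
Slc8a1: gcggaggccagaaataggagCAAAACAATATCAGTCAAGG
Cntn2: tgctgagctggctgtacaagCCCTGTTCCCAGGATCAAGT

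A further 6 circRNAs that rose had log2 FCs between 2.95 and 3.31. They came from Bcl11b, a zinc finger regulator of deep-layer projection neurons, and from Slc8a2, another sodium-calcium exchanger. They also came from Epb4.1l1, a cytoskeletal linker of the neuronal membrane, Nrxn2, a presynaptic adhesion protein, Mast1, a microtubule-associated kinase, and Nav2, a protein of growing neurites. Bcl11b had the widest spread, with 4158, 1287 and 1956 CPM in N and 232, 202 and 308 CPM in DP. Its highest value was that of N replicate 1, and without this library it stayed called (edgeR adjusted p = 0.00194).

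**Figure D2:**
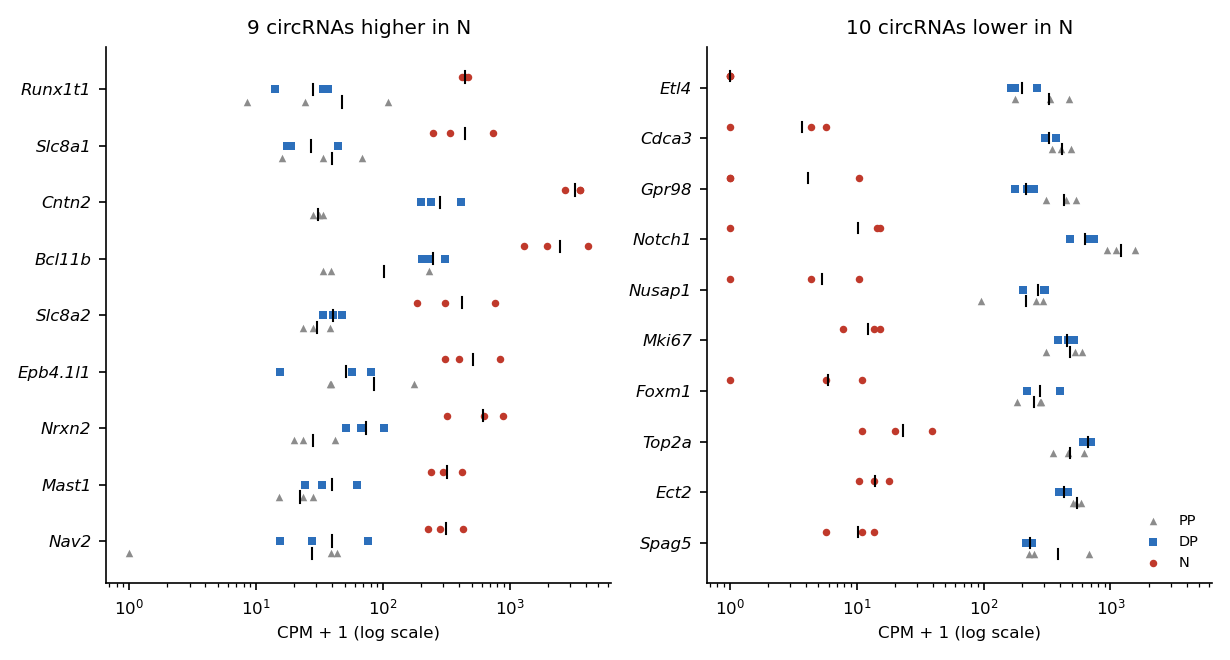
Level in each library (CPM + 1, log scale) of 9 circRNAs that rose (left) and the 10 that fell most (right) from DP to N, labelled by parental gene, with 3 points per cell type and the mean as a black bar. The N and DP points of each of these circRNAs lie apart, since libraries that do not overlap were a criterion for naming them, and PP points lie mostly near DP on the right.

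The circRNAs that fell most were taken by the same rule. A circRNA of Etl4, a gene known from the development of the notochord and intervertebral discs, had no count in any N library and was at 162, 176 and 264 CPM in DP. It was at least 39.0-fold lower in N, taking 3 counts over the N libraries as the floor (edgeR adjusted p = 8.57e-05). All 6 tested Etl4 circRNAs fell, of which up to 3 do not overlap. The 6 together had 1 count in the N libraries, in N replicate 3. The circRNA of Cdca3, a trigger of entry into mitosis, was at 0, 3.37 and 4.75 CPM in N and at 304, 371 and 311 CPM in DP. With 2 counts in all N libraries, the level in DP was 96.3 times that in N (exact 95% interval 26.4 to 799, counting error only; edgeR adjusted p = 7.48e-06). A circRNA of Gpr98, a very large adhesion receptor, was at 0, 0 and 9.49 CPM in N and at 175, 248 and 217 CPM in DP. Here DP was 62.3 times N (interval 17 to 519; edgeR adjusted p = 5.21e-05), and PP, between 311 and 532 CPM, was above DP in every library.

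The junctions of these circRNAs are given in the same way, from chr2:20583525-20635075 on the plus strand (Etl4), chr6:124781380-124782687 on the plus strand (Cdca3) and chr13:81557995-81583577 on the minus strand (Gpr98).
Etl4: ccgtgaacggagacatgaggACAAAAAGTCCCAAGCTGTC
Cdca3: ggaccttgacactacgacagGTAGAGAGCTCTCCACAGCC
Gpr98: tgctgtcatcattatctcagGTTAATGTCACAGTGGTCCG

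Notch1, the receptor that keeps neural progenitors undifferentiated, gave the next circRNA, with 0, 13.5 and 14.2 CPM in N and 483, 734 and 681 CPM in DP. All N libraries were at or below 4 counts (log2 FC -5.69 ± 0.49, edgeR adjusted p = 1.29e-05), and PP was higher still, between 937 and 1571 CPM. The other 6 came from Nusap1 and Spag5 (spindle assembly), Mki67 (the surface layer of mitotic chromosomes), Foxm1 (a transcription factor of the G2 and M phases), Top2a (DNA topoisomerase) and Ect2 (an exchange factor needed for cytokinesis). Their log2 FCs lay between -5.56 and -4.65. A Mki67 circRNA was at 12.6, 6.74 and 14.2 CPM in N and at 459.8, 518 and 387 CPM in DP, and a Top2a circRNA at 37.9, 10.1 and 19.0 CPM in N and at 701, 691 and 601 CPM in DP. All 19 of these circRNAs stayed called without each of the 9 libraries in turn.

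The markers of each cell type were checked in the same comparison. Of 51 tested circRNAs from 20 of 33 listed genes of newborn neurons, 35 were higher and 0 lower in N, with a median log2 FC of 1.81. Their summed level was between 29405 and 30777 CPM in N and between 7930 and 10653 CPM in DP. Of 50 circRNAs from 22 of 29 listed genes of cycling cells, 0 were higher and 48 lower (median -3.45), and their sum fell from between 7095 and 8387 CPM in DP to between 650.1 and 771 CPM in N. Of 29 circRNAs from 12 of 25 listed genes of radial glia, 1 was higher, from the proteoglycan gene Vcan, and 23 were lower, with sums between 6417 and 7905 CPM in DP and between 3388 and 4310 CPM in N. The Vcan call was lost without any 1 of the DP libraries (adjusted p up to 0.0995). The counts per list can be read against the background of 9.82% higher and 10.1% lower. No circRNA of Btg2 or Tubb3 was tested, so the reporter genes themselves could not be checked. Intermediate progenitors had only 3 of 15 listed genes tested. One of them, Mfng, a modifier of Notch receptors, gave 2 circRNAs that fell, with log2 FCs of -2.62 and -2.34. In bulk libraries, fewer cells with a circRNA and less of it per cell cannot be told apart.

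Markers of cells that the gates could also hold were sparse, and the meninges and ganglionic eminences had been taken off before dissociation. Among interneuron markers only Erbb4 and Prox1 had a circRNA tested, of endothelial cells and pericytes only Heg1 and of meninges only Fbln1. None of the listed genes of microglia and blood cells or of oligodendrocyte precursors had one. The Erbb4 circRNA was at 75.8, 87.6 and 52.2 CPM in N and had no count in DP, at least 20.9-fold higher in N (edgeR adjusted p = 0.00106). The Prox1 circRNA was at 12.6, 37.1 and 4.75 CPM in N and at 116, 129.6 and 116 CPM in DP (log2 FC -2.47 ± 0.56, edgeR adjusted p = 0.00568). These interneuron markers therefore moved in opposite directions. The Heg1 circRNA fell (173.9 ± 38.4 CPM in DP, 49.2 ± 23.3 CPM in N, n = 3; edgeR adjusted p = 0.0152), while the Fbln1 circRNA was between 569 and 688 CPM in DP and between 236 and 354 CPM in N and was not called. The part of such cells in the results was not tested.

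Genes that copy and repair DNA gave circRNAs that fell and none that rose. Of 99 tested circRNAs, 46 fell, from 25 of 56 genes, and the median log2 FC was -1.13 against -0.02 for all circRNAs tested. These genes included Mcm4, Mcm5 and Mcm6, subunits of the replicative helicase, Pola1, Pole, Pold3 and Prim1 of the DNA polymerases and primase, and Brca1 of homologous recombination. The Mcm5 circRNA was at 12.6, 40.4 and 23.7 CPM in N and at 318, 454 and 391 CPM in DP (log2 FC -3.70 ± 0.38, edgeR adjusted p = 3.42e-05). Topbp1, which activates the ATR kinase at stalled forks, had 6 of 6 tested circRNAs lower, of which up to 2 do not overlap.

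Genes of mitosis, the spindle and the centrosome followed, with 68 of 183 circRNAs lower, from 40 genes, and 2 higher (median -0.92). Among the genes with fallen circRNAs were the kinesins Kif4, Kif15, Kif20a, Kif23 and Kif2c, the checkpoint kinases Bub1 and Bub1b, and Aspm and Cdk5rap2, which are mutated in microcephaly. Ect2, Mki67 and Diap3, a formin, were there too. Both circRNAs that rose came from 1 gene, Nin, whose protein ninein anchors microtubules at the mother centriole. The circRNA of Nin with the smaller p was at 278, 165 and 228 CPM in N and at 13.2, 25.2 and 18.1 CPM in DP. The lowest N library was above the highest DP library (log2 FC 3.49 ± 0.39, edgeR adjusted p = 6.13e-05), and the other, from a separate part of the gene, had a log2 FC of 3.40.

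In the list of progenitor receptors, Notch and radial glia genes, 55 of 163 circRNAs were lower, from 22 genes, and 21 were higher, from 10 (median -0.31). The share lower was 33.7%, and the share higher, 12.9%, was near the background of 9.82%. Those that fell included Notch1, Notch2, the Fringe genes Lfng and Mfng and the co-activator Maml2 of the Notch pathway, and Gli2, Gli3, Boc and Cdon of Hedgehog signalling. A Notch2 circRNA was at 25.3, 23.6 and 14.2 CPM in N and at 314, 317 and 319 CPM in DP (log2 FC -3.91 ± 0.36, edgeR adjusted p = 2.51e-05). Members that rose included Sox5, a regulator of deep-layer neurons, Erbb4, the activin receptors Acvr1 and Acvr1b, the matrix proteoglycans Ncan and Vcan, and Kit, a receptor tyrosine kinase. A Kit circRNA was at 228, 253 and 285 CPM in N, at 46.3, 72.0 and 57.9 CPM in DP and at or below 15.1 CPM in PP (N against DP, log2 FC 2.12 ± 0.30, edgeR adjusted p = 0.000189).

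Of 324 circRNAs of chromatin regulators, 21 were lower and 6 higher (6.48% and 1.85%), both below the background. The lower ones came from 11 genes, including the maintenance methyltransferase gene Dnmt1, Chd7, a remodelling enzyme mutated in CHARGE syndrome, and Prdm16, a methyltransferase-like factor of radial glia. A Prdm16 circRNA was at 50.6, 16.8 and 19.0 CPM in N and at 155, 187 and 224 CPM in DP (log2 FC -2.98 ± 0.44, edgeR adjusted p = 0.000269). The higher ones included a circRNA of Asxl3, whose call was lost without DP replicate 1 or 2 or N replicate 3 (adjusted p up to 0.0846). The counts for the list were between 11 and 13 lower without any 1 of the DP libraries or N replicate 3 and 40 lower without PP replicate 3, and 2 or 3 were higher without any 1 of the DP libraries or N replicate 1 or 3.

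**Figure D3:**
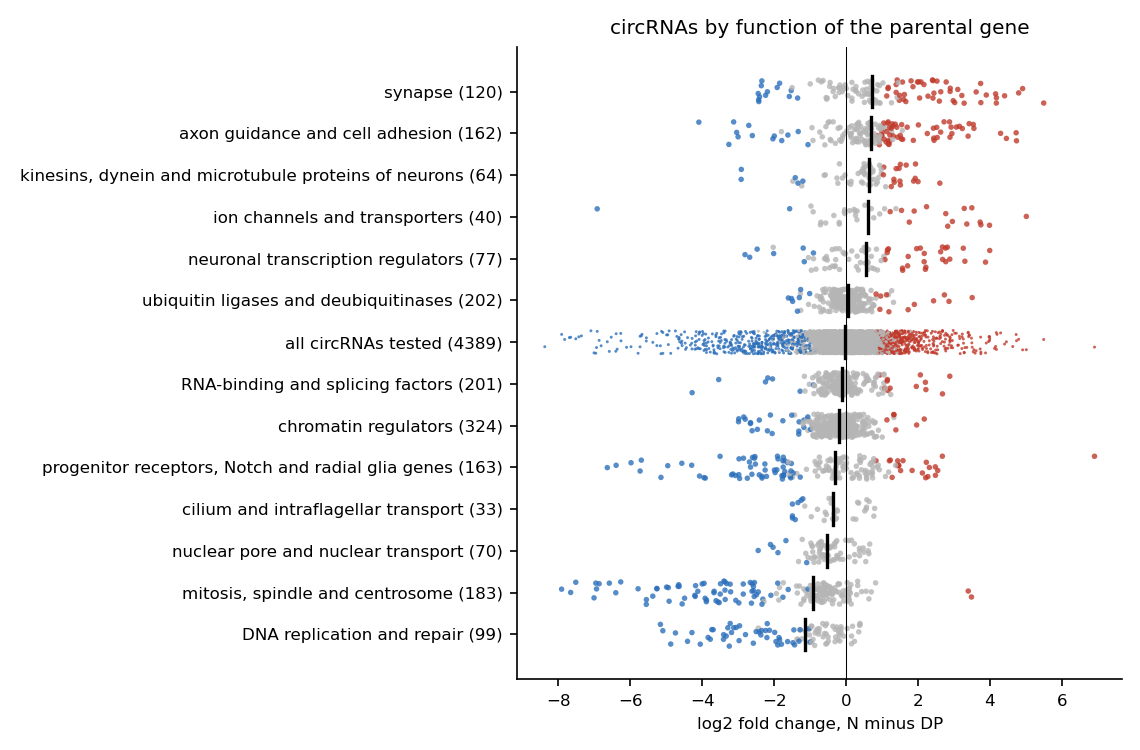
Log2 fold change (N minus DP, x axis) of the tested circRNAs of each list of parental genes (number in brackets), with 1 point per circRNA, red where called higher in N, blue where called lower and grey where not called, and black bars at the medians. Replication genes have the lowest median (-1.13) and synapse genes the highest (0.71).

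Lists of neuronal genes lay on the other side. Of 120 circRNAs of synapse genes, 46 were higher, from 30 genes, and 13 lower, from 3 (median 0.71). The share higher was 38.3%, and the share lower, 10.8%, was near the background of 10.1%. The genes with higher circRNAs included all 3 neurexins, the postsynaptic scaffolds Shank2, Homer1 and Dlgap2, the active zone proteins Pclo, Rims1, Erc1 and Erc2, and the glutamate receptor subunits Gria2 and Grin2b. The circRNA of Snap91, an endocytic adaptor of clathrin at nerve terminals, was at 189.6, 182 and 256 CPM in N and at 13.2, 10.8 and 3.62 CPM in DP (log2 FC 4.41 ± 0.45, edgeR adjusted p = 3.20e-05). The genes with lower circRNAs were Magi1, a scaffold of cell junctions, Grik2, a kainate receptor subunit, and App, the amyloid precursor protein. All 9 tested Magi1 circRNAs fell, of which up to 3 do not overlap, and the 9 make up most of the 13. Without N replicate 1, 49 of 128 circRNAs tested in the list were higher and 15 lower. With the high-count entries kept and total counts, 13 circRNAs of the list were higher and 10 lower, with a median of 0.25.

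Of 162 circRNAs of genes for axon guidance and cell adhesion, 55 were higher, from 30 genes, and 13 lower, from 6 (median 0.69). The share higher was 34.0%, and the share lower, 8.02%, was near the background of 10.1%. The higher ones included the receptors Robo1, Robo2, Dcc, Neo1 and Plxnd1, Dab1 of the reelin pathway, and the navigators Nav1, Nav2 and Nav3. The circRNA of Reln, the secreted guide of radial migration made by Cajal-Retzius cells, was at 152, 185 and 171 CPM in N and between 3.62 and 7.20 CPM in DP, with at most 4.71 CPM in PP (N against DP, log2 FC 4.74 ± 0.46, edgeR adjusted p = 2.52e-05). The lower ones came from Sema5a and Sema5b, transmembrane semaphorins, and from Ctnna1, Epha4, Igsf11 and Pvrl3. The Epha4 call was lost without any 1 of the DP libraries or N replicate 2 or 3 (adjusted p up to 0.112). The Sema5a circRNA with the smallest p was at 12.6, 16.8 and 4.75 CPM in N and at 189, 216 and 228 CPM in DP (log2 FC -4.09 ± 0.53, edgeR adjusted p = 0.000115), and the other 2 Sema5a circRNAs fell by 1.99 and 2.03 on the log2 scale. Without DP replicate 2, 31 circRNAs of the list were higher and 8 lower, without DP replicate 1, 34 were higher, and without N replicate 3, 8 were lower. Without N replicate 1, 60 of 172 tested were higher and 15 lower. With the high-count entries kept and total counts, 19 were higher and 8 lower.

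Of 77 circRNAs of neuronal transcription regulators, 25 were higher and 7 lower (32.5% and 9.09%, median 0.54), the lower share near the background of 10.1%. This list also holds RNA-binding genes. Celf2, Elavl3, Nova2 and Rbfox1 among the higher and Elavl4 among the lower are counted again with the RNA-binding factors below. A circRNA of Myt1l, a zinc finger factor that represses non-neuronal genes, was at 935, 1381 and 1244 CPM in N, at 155, 173 and 177 CPM in DP and at most at 40.6 CPM in PP. N was above DP in every library (log2 FC 2.82 ± 0.34, edgeR adjusted p = 8.57e-05). Without N replicate 1 the median of the list was 0.35. The 7 lower became 11 without PP replicate 3, 3 or 4 without any 1 of the DP libraries and 2 without N replicate 3, and with the high-count entries kept and total counts, 13 were higher and 3 lower, with a median of 0.08. Of 40 circRNAs of ion channels and transporters, 15 were higher and 2 lower (37.5% and 5.0%, median 0.61). All 3 sodium-calcium exchanger genes were among the higher. The Slc8a3 circRNA was at 63.2, 162 and 142 CPM in N against 3 counts in all DP libraries, a ratio of 40.4 (exact 95% interval 13.3 to 200; edgeR adjusted p = 8.57e-05). One of the 2 lower, from Jph1, lost its call without DP replicate 2 or 3 or N replicate 2 or 3 (adjusted p up to 0.0853), and 4 were lower without PP replicate 3. With the high-count entries kept and total counts, 9 were higher and 1 lower.

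Of 64 circRNAs of kinesins, dynein and microtubule proteins of neurons, 16 were higher and 5 lower (median 0.65). A circRNA of Mtap2, the microtubule-associated protein of dendrites, was at 1833, 2873 and 2397 CPM in N and at 407, 331 and 427 CPM in DP (log2 FC 2.61 ± 0.33, edgeR adjusted p = 0.000112), and the other 2 Mtap2 circRNAs had log2 FCs of 1.51. The lower ones came from Dync2h1, the motor of retrograde transport in cilia, and from Kif26b. A Kif26b circRNA was at 25.3, 23.6 and 33.2 CPM in N, at 185, 176 and 271 CPM in DP and between 13.5 and 18.8 CPM in PP. It was thus high in DP alone among the 3 cell types (N against DP, log2 FC -2.92 ± 0.37, edgeR adjusted p = 0.000112). In this list 9 were higher without any 1 of the DP libraries and 27 without PP replicate 3, and 3 were lower without DP replicate 1 or N replicate 2. With the high-count entries kept and total counts, 1 was higher and 2 were lower.

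The remaining lists held smaller numbers of calls. Of 70 circRNAs of the nuclear pore and nuclear transport, 0 were higher and 6 lower (8.57%, near the background of 10.1%), including those of the lamina-binding proteins Tmpo and Lbr, and 13 were lower without PP replicate 3. A Tmpo circRNA fell from between 1962 and 2383 CPM in DP to between 429.7 and 603 CPM in N (log2 FC -2.03 ± 0.33, edgeR adjusted p = 0.000566). Of 33 circRNAs of the cilium, 0 were higher and 7 lower, from Dync2h1 and Alms1. The 7 became 1 without N replicate 2, 2 without DP replicate 2 or 3 or N replicate 3, 3 without PP replicate 1, 4 without DP replicate 1 and 0 with the high-count entries kept and total counts. The Alms1 call with the smallest p was lost without PP replicate 1, DP replicate 2 or 3, or N replicate 2 or 3 (adjusted p up to 0.186).

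Of 202 circRNAs of ubiquitin ligases and deubiquitinases, 11 were higher and 7 lower, that is 5.45% and 3.47%, below the background in both directions. Without N replicate 1, 17 were higher, and without any 1 of the DP libraries or N replicate 3, 6 or 7 were higher and between 2 and 4 lower. Hecw1, a HECT-type ligase, had the smallest p of the higher ones, with 177, 317 and 332 CPM in N and 39.7, 25.2 and 50.7 CPM in DP (edgeR adjusted p = 0.000237). Of 201 circRNAs of RNA-binding and splicing factors, 12 were higher and 7 lower (5.97% and 3.48%, also below the background). Without PP replicate 3, 19 were higher and 11 lower, and 5 were higher without DP replicate 2 and 7 without N replicate 3. The higher ones included Nova2, Rbfox1, Celf2 and Elavl3, which steer neuronal splicing. The Nova2 circRNA was at 2629, 741 and 1168 CPM in N and at 208, 241 and 246 CPM in DP (log2 FC 2.68 ± 0.48, edgeR adjusted p = 0.00117). The lower ones came from Qk, Ptbp1, Samd4 and Elavl4. All 3 Qk circRNAs fell, and Qk encodes quaking, a factor known to promote circRNA formation. The one with the smallest p was at 37.9, 94.3 and 75.9 CPM in N and at 331, 454 and 289.6 CPM in DP (log2 FC -2.24 ± 0.43, edgeR adjusted p = 0.00170). For Ptbp1, the repressor of neuronal exons in progenitors, the call (log2 FC -1.28 ± 0.39, edgeR adjusted p = 0.0319) was lost without any 1 of the DP libraries or N replicate 2 or 3 (adjusted p up to 0.155).

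The most abundant circRNAs did not pass the test. By CPM, which is not per length, the leading entries came from Nfix, Hnrnpa2b1, Jarid2, Ptprs and Tnrc18, with edgeR adjusted p between 0.117 and 0.804. For Nfix the counted length was 78705 bases, as long as the whole interval, against 2590 bases of annotated exons. It was 26352 against 489 bases for Jarid2 and 11019 against 774 bases for Ptprs. In all, 537 of the retained entries had a counted length over 10 bases longer than their exons. The Jarid2 entry was at 19009.5, 3567 and 6844 CPM in N and at 2487, 4352 and 4832 CPM in DP. N replicate 1 lay far above every other library and N replicate 2 lay among the DP libraries. Without N replicate 1 the edgeR adjusted p was 0.559, whereas the entry was called higher without N replicate 2 (0.0324) or PP replicate 3 (0.0438).

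The circRNA at the position of Cdr1as, known for binding miR-7, covers chrX:58436423-58439349 on the plus strand. Its sequence in mm9 held 123 matches to GTCTTCC, the reverse complement of bases 2 to 8 of miR-7a-5p (the seed, in capitals below, from the RefSeq miRNA sequences on GRCm38.p6), searched on the strand of the circle. No other retained circRNA held more than 3, and 325 of 5254 (6.19%) held at least 1. The junction below is printed as above.
mmu-miR-7a-5p: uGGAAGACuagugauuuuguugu
Cdr1as: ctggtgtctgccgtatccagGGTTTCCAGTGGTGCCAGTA

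Its level was 37.9, 862 and 797 CPM in N and 99.2, 122 and 119 CPM in DP. The groups overlapped, since N replicate 1, with 3 counts, lay below every DP library while the other N libraries lay far above. The difference was called (log2 FC 2.37 ± 0.63, edgeR adjusted p = 0.0148), with a log2 FC of 2.89 and an adjusted p of 7.87e-05 without N replicate 1. The call was lost without any 1 of the DP libraries or of N replicates 2 and 3 (adjusted p between 0.0609 and 0.0772).

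Called circRNAs of the same gene had the same direction. Of 2307 genes tested, 510 had at least 1 circRNA called, 260 with a higher one, 250 with a lower one and 0 with both. Of 195 genes with at least 2 called circRNAs, 96 had only higher and 99 only lower ones. Overlapping circRNAs share reads, so this count is not over independent measures, and 111 genes had at least 2 called circRNAs that did not overlap, 57 all higher and 54 all lower. Nbea, a scaffold of membrane traffic, and Sox5 each had 7 of 7 tested circRNAs higher, and Myt1l and Lphn3 5 of 5. Magi1 had 9 of 9 lower, Cdon, a Hedgehog co-receptor, 8 of 8, and Pard3, a polarity protein of the apical junction, 7 of 7. The called circRNAs that did not overlap were fewer: 3 each for Nbea, Sox5, Magi1 and Pard3, 4 for Lphn3 and 2 each for Myt1l and Cdon. The Cdon entry at chr9:35277450-35290805 had a counted length of 13357 bases, as long as the whole interval. The same held for chr9:35259630-35264320 (4692 bases), chr9:35286169-35290805 (4638 bases) and chr9:35290683-35299509 (8828 bases). The entries with counted lengths of 15315, 24970 and 33674 bases contain chr9:35259630-35264320. Intron reads may therefore be counted in most of the Cdon entries. The log2 FCs of the 7 Sox5 circRNAs lay between 2.21 and 2.68 and those of the 8 Cdon circRNAs, several of which overlap, between -2.96 and -2.52.

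**Figure D4:**
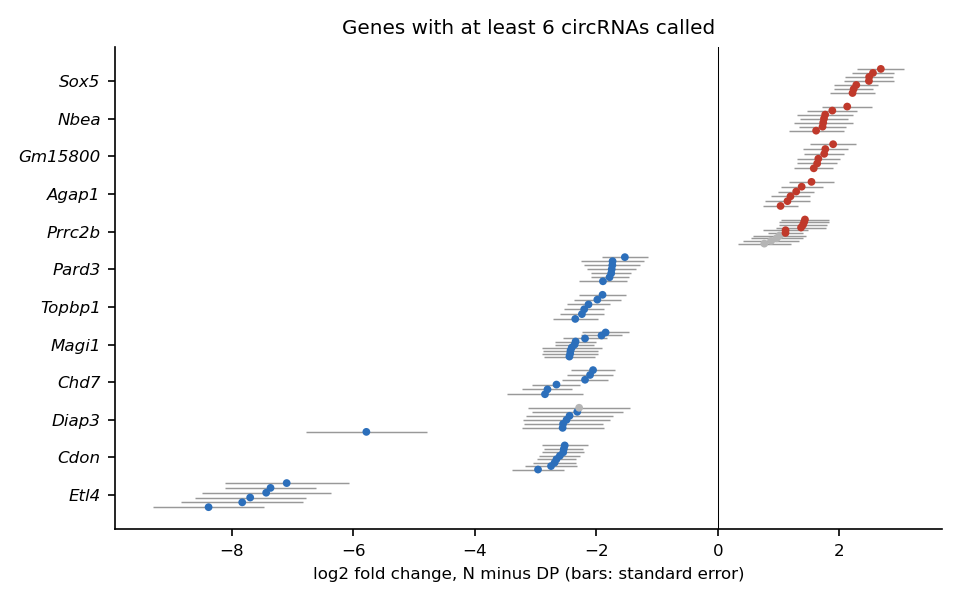
Log2 fold change (N minus DP, x axis, bars give the standard error) of every tested circRNA of the 12 genes with at least 6 called, with called circRNAs in red (higher in N) or blue (lower) and others in grey. Within each gene the circRNAs lie on 1 side of 0, and the values of Etl4 come from circRNAs with 1 or no count in N.

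Whether the circRNAs of a gene changed unequally was tested in 1012 genes with at least 2 tested circRNAs. At an adjusted p under 0.05, 0 genes passed (0%) in edgeR's test of differential usage, with 17 at an unadjusted p under 0.05 and a smallest adjusted p of 0.0747. Up to 5 genes passed in other settings, all of them among App, Ntrk3, Ttc28, Mtap2 and Clasp2. The gene with the smallest p, App, passed without N replicate 1 (adjusted p = 0.0255) or PP replicate 3 (0.0497), without both (0.0214) and with total counts (0.0188), and the adjusted p ranged up to 1 elsewhere. App, Ntrk3, Lphn3 and Ttc28 are described because they had the smallest p-values.

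App gave 8 tested circRNAs, of which 1 was called. It was at 12.6, 13.5 and 14.2 CPM in N, at 72.8, 68.4 and 57.9 CPM in DP and between 75.4 and 135 CPM in PP (N against DP, log2 FC -2.24 ± 0.46, edgeR adjusted p = 0.00307). All N libraries lay far below all DP libraries, and the call was kept without each of the 9 libraries. The N values are near or below the level of 3 counts, which is 37.9, 10.1 and 14.2 CPM in N replicates 1, 2 and 3. The other 7 App circRNAs had log2 FCs between -0.69 and 0.67 with none called. One that contains the same exons among others had a log2 FC of 0.20 and was at 733, 808 and 721 CPM in N. One that shares its other exons but lacks these 2 (chr16:85013872-85030610) was at 720, 802 and 707 CPM in N, with a log2 FC of 0.27. Reads on the 2 exons can count for both the called and the containing circle. Whether the called circle alone fell was therefore not tested. Another, from exons further 5′ (chr16:85080085-85103580), was at 1782, 754 and 911 CPM in N and at 685, 644 and 811 CPM in DP. The called circle spans chr16:85040496-85043988 on the minus strand and holds 2 exons of 168 and 57 bases. These are the exons of the Kunitz protease inhibitor domain and of the stretch after it, which are known to be skipped in the App transcript of neurons and kept in that of other cells. They are printed in full, the first exon in lower case and the second in capitals, since they make up the whole of the called circle.
App: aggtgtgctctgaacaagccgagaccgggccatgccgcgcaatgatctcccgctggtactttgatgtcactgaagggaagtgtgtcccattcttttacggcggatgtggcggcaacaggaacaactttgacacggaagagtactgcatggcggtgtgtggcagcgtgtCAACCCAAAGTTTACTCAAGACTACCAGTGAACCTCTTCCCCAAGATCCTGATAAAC

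Ntrk3, the receptor of neurotrophin-3, gave 2 overlapping circRNAs called higher and 1 that was not called. The called one at chr7:85392041-85405300 was at 189.6, 111 and 133 CPM in N and at 46.3, 39.6 and 57.9 CPM in DP (log2 FC 1.51 ± 0.36, edgeR adjusted p = 0.00854, and 0.0571 without DP replicate 2). The other, at chr7:85595773-85607828, was at 417, 357 and 384 CPM in N and at 327, 338 and 366 CPM in DP (log2 FC 0.16 ± 0.26, edgeR adjusted p = 0.749). Lphn3, a latrophilin, gave 5 circRNAs that all rose, with log2 FCs of 1.6, 1.62, 2.64, 3.22 and 4.18 from the 5′ to the 3′ end of the gene. Their levels in N were alike (between 63.2 and 139 CPM), while in DP the first was between 18 and 36.2 CPM and the last between 3.60 and 6.62 CPM. In DP, 3 counts correspond to between 9.92 and 10.9 CPM, so the last lay below this level and the fourth at it. The larger log2 FCs therefore rest on few reads, and Lphn3 did not pass the test of differential usage (edgeR adjusted p = 0.139). The call of the first was lost without DP replicate 2 or N replicate 2 or 3 (adjusted p up to 0.0967). In Ttc28, 3 circRNAs rose by between 1.89 and 2.05 and the first in the gene had a log2 FC of -0.34 and was not called.

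**Figure D5:**
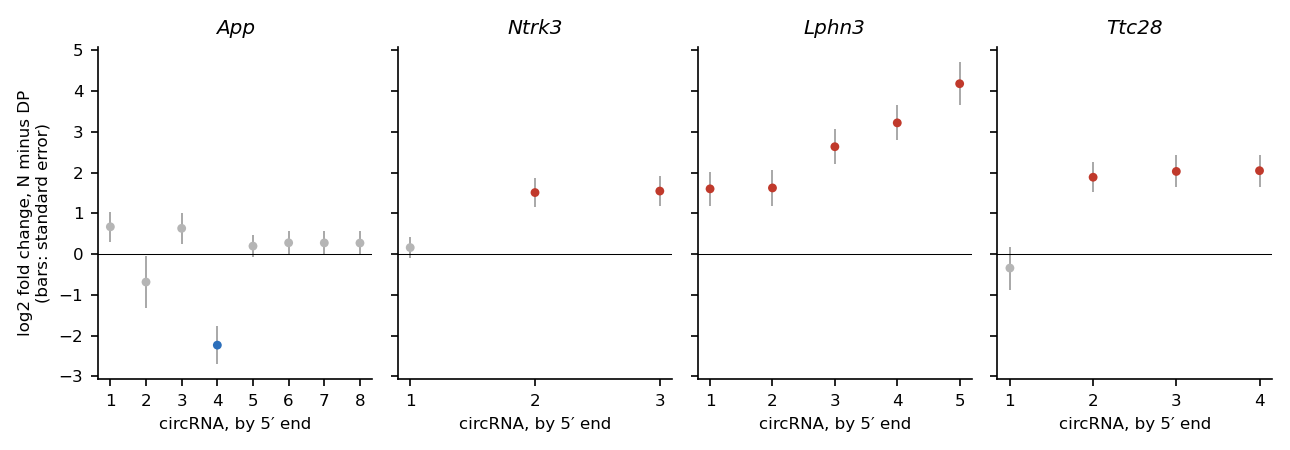
Log2 fold change (N minus DP, y axis, bars give the standard error) of the tested circRNAs of App, Ntrk3, Lphn3 and Ttc28, ordered along x by their 5′ end in the gene, red where called higher in N, blue where called lower and grey where not called. In App only the circle of the pair of skipped exons is called. The values of the 5 of Lphn3 go from 1.6 to 4.18, and the last has fewer than 3 counts in each DP library.

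Some gene families had 1 member on each side. The pairs below were picked after their values were seen, for their opposite directions. Sox5 rose with 7 of 7 circRNAs, while Sox6, its close relative, fell with 3 of 3 (median log2 FCs 2.49 and -1.99). Ctnna2, the alpha-catenin of neurons, rose with 2 of 2, and Ctnna1, the alpha-catenin of epithelia, fell with 5 of 5 (2.45 and -3.0). Up to 3 of the 5 Ctnna1 circRNAs do not overlap. Mpped1 rose with 2 of 2 and Mpped2 fell with 4 of 4 (2.31 and -1.41), although the Mpped2 circRNA with the smallest p lost its call without DP replicate 2 (adjusted p = 0.0565). Up to 2 of the 4 Mpped2 circRNAs do not overlap. Elavl3, a neuronal RNA-binding protein, rose with 3 of 3 (median 2.21). The circRNA of its relative Elavl4 was at 202, 327 and 332 CPM in N, at 559, 569 and 525 CPM in DP and between 149 and 189 CPM in PP (N against DP, log2 FC -0.91 ± 0.28, edgeR adjusted p = 0.0338). That call was lost without PP replicate 1, any 1 of the DP libraries, or N replicate 2 or 3 (adjusted p up to 0.118).

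Values in PP placed the changes within the lineage. Of the 445 circRNAs lower in N, 100 (22.5%) were higher in every PP library than in every DP library and 28 (6.29%) were lower in every PP library, against 8.54% and 11% of all circRNAs tested, so that these 28, from 19 genes, were highest in DP. Besides Kif26b they included Mfng, Prox1, 5 circRNAs of Magi1 and 2 of Rhbdl3, a rhomboid-like protein. Of the 431 circRNAs higher in N, 121 (28.1%) were lower in every PP library than in every DP library and 17 (3.94%) were higher. DP libraries are shared by the N and PP values, so these counts are a description and were not tested.

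CircRNAs that rose, fell or were not called had similar counted lengths, with medians of 550, 575 and 519 bases. They spanned 7527, 5506 and 6069 bases of genome, with a median of 4 annotated exons in each class. The median GC content of their exons was 52.3% for those higher, 49.7% for those lower and 47.7% for those not called. In the calls made without N replicate 1, the library whose values moved with GC content, these medians were 50.2%, 50.5% and 47.7%.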

How the data were processed

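The counts per circRNA deposited by the authors were used as given. The authors aligned reads with gsnap to mm9, predicted circRNAs with find_circ, counted reads with featureCounts (Subread 1.6.0, per the labels) on the features above an RPKM threshold, and summed them per circRNA. The study left introns out of its later analyses, but whether the deposited counts hold intron reads is not given in the sources used here. The deposited length column was read as the counted bases, which for some entries span introns. Counts are not limited to backsplice reads, so that reads of overlapping circRNAs and of residual linear RNA cannot be told apart, and 13 entries that share coordinates with another hold the same counts as it. Parental genes, exons and sequences were taken from GENCODE vM1 on mm9, with file starts read as 0-based.

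Here, 27 high-count entries were left out, circRNAs were filtered with filterByExpr and scaled with TMM, and N was tested against DP with edgeR 4.0.16 (R 4.3.3) in a quasi-likelihood model fitted to the 9 libraries together. P-values were adjusted by Benjamini-Hochberg, with 0.05 as the threshold. Unequal change within a gene was tested with diffSpliceDGE. Both steps were tested on simulated data. Alternatives were DESeq2 1.42.0, RLE or total counts, the high-count entries kept, omission of the filter or a minimum of 10 counts in each N and DP library, the 6 libraries alone, a replicate block, each library left out, a fold change of 1.5, 1 of each set of identical entries, non-overlapping circRNAs for the within-gene test and, added after the data were seen, PP replicate 3 and N replicate 1 left out together. Ratios from 1 to 3 counts use summed counts per summed effective library size with an exact binomial 95% interval. Python 3.11.15, pandas 2.3.3, scipy 1.17.1 and matplotlib 3.10.9 were used.

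The comparison and the gene and marker lists were chosen with earlier results of these data known, so their counts are not independent evidence. Named circRNAs are, 1 per gene, the 10 per direction with the largest log2 FC among those called, at or above the median level of 6.99 log2 CPM and without overlap of N and DP libraries, the 2 per list and direction with the smallest adjusted p, the 5 most abundant, and Cdr1as. A further part of the rule, genes with circRNAs called in both directions, named 0 genes. Some items that the rule names are not reported here. The Erbb4, Lphn3, Ntrk3, Ttc28, Mfng, Heg1, Ptbp1, Vcan, Fbln1 and App circRNAs beyond this rule and the gene pairs, as well as the genes given only as examples of a list, were chosen after their values were seen. Counts per library carried a biological coefficient of variation of 0.122 in DP, 0.347 in N and 0.425 in PP. The most alike replicates, PP 1 and 2, gave a chi-square per degree of freedom of 1.22, and DP 1 and 2 gave 1.67, and all were kept as separate samples.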

Additional observations from a re-analysis of the deposited data

How the results depend on the processing

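The 20 circRNAs with the largest changes kept their direction and their call in every alternative in which they could be tested. The number of circRNAs called (876, 431 higher and 445 lower) was 407 with the high-count entries kept and total counts (84 higher), 288 of 1854 with at least 10 counts in every N and DP library (193 higher, 95 lower), and 1632 without PP replicate 3 and N replicate 1 together (826 higher, 806 lower). Tested against a fold change of 1.5, 271 were higher. With the 6 N and DP libraries alone, 1031 of 4323 were called (517 higher, 514 lower). Leaving out 1 library in turn gave between 557 and 1252 calls, between 233 and 633 higher and between 300 and 619 lower. Fewer circRNAs were tested under the count minimum, and for the rest the cause was not tested. Genes whose circRNAs changed unequally numbered 0, and 2 with total counts, 1 with at least 10 counts, between 0 and 2 without 1 library, and 5 without PP replicate 3 and N replicate 1 together.

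Among the circRNAs named, reversals were limited to 3 that were not called. The log2 FC of CiCo_mm9_circ_006344, from Nfix, was -0.0238 with total counts, -0.39 with the high-count entries kept and total counts, -0.13 with at least 10 counts, -0.20 without N replicate 1 (up to 0.48 without another library) and -0.20 without PP replicate 3 and N replicate 1 together. The log2 FC of CiCo_mm9_circ_005488, from Hnrnpa2b1, was -0.0125, -0.47, -0.12, -0.35 (up to 0.54 without another library) and -0.35 in the same settings. That of the uncalled Ntrk3 circRNA was -0.22 with the high-count entries kept and total counts and -0.10 with at least 10 counts. Total counts shifted the median of all circRNAs to -0.15, or to -0.37 with the high-count entries kept. The median of the ubiquitin list changed sign with either (down to -0.30), with at least 10 counts and without N replicate 2 and those of the progenitor and cilium lists changed sign with at least 10 counts (0.03 and 0.35). The medians of the other lists described kept their sign. With at least 10 counts in every N and DP library, 0 of 11 replication circRNAs and 4 of 21 mitosis circRNAs tested were lower. The main setting tested 99 and 183, and this minimum takes out circRNAs with few counts in N, so it cannot show their fall. With the high-count entries kept and total counts, 6 progenitor circRNAs were higher and 0 chromatin circRNAs.

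Replicate numbers are shared by N and DP, but the deviations of same-numbered libraries from their group means correlated at -0.164, 0.079 and -0.137, so the numbers were not taken to pair the libraries. With the replicate block, 743 circRNAs were called, 351 of them higher, and 0 genes changed unequally.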
